A study of Mus musculus with 4 samples.

Results

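Intraepithelial lymphocytes are the T cells that lie between the epithelial cells of the gut, and 36 genes that mark them were followed here in an epithelial preparation. The genes cover the T cell receptor complex, surface receptors, receptor signalling, the cytotoxic granule, chemokines, homing receptors and general haematopoietic proteins, and they were given as a named list that was drawn up with earlier results of these data known. Each gene was read from the probe set that is named for it alone and has the highest mean over the arrays. Of the 36 genes, 35 had such a probe set, out of 18193 genes in the whole data set, and 32 of these reached the minimum mean signal of 0.983 used for testing. Cd247, Cd2 and Cd69 were below it, and Lck was not analysed here.

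The study compared small intestinal epithelium of mice that lack AP-1B with that of heterozygous mice. AP-1B is the epithelial form of a clathrin adaptor that directs membrane proteins to the basolateral side of the cell, and Ap1m2 encodes its medium subunit. There were 4 arrays with 1 mouse RNA sample each, 2 labelled AP-1B+/- (heterozygous) and 2 labelled AP-1B-/- (knockout). No wild-type array was used, so the heterozygous arrays were the control. All mice were C57BL/6J adults of 10 weeks, healthy and free of specific pathogens. The epithelium was loosened in buffer with 30 mM EDTA on ice for 20 min and then teased off with a needle under a microscope, and the labels name no step that removes lymphocytes. The labels do not say how many animals each array stands for. Signals are given as multiples of the array median, which was between 0.996 and 0.998 on every array, and 4 values given without array names are in the order heterozygous 1, heterozygous 2, knockout 1, knockout 2.

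In the mouse small intestine most intraepithelial lymphocytes carry CD8, often as a homodimer of the alpha chain, and either an alpha-beta or a gamma-delta T cell receptor. They enter the epithelium through the receptor Ccr9, whose ligand Ccl25 is made by enterocytes, and are held there by the integrin alphaE chain, which binds E-cadherin on epithelial cells. IL-15 presented by the epithelium maintains them, and they store granzymes and chemokines ready for release. In RNA of a bulk preparation, fewer lymphocytes and less RNA per lymphocyte cannot be told apart.

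The arrays did not order by their labels at the targeted gene. Ap1m2 had a signal of 19.9 on heterozygous 1, 22.3 on knockout 2, 4.33 on heterozygous 2 and 2.49 on knockout 1, so the array labelled heterozygous 2 had a low and the array labelled knockout 2 a high signal, against their labels. Each result is therefore given by label and also array by array in the order of the Ap1m2 signal, the second only as a description. Each label, and each of the high and low Ap1m2 levels, held 1 array with a high Xist and 1 with a high Eif2s3y signal, the female and male patterns. Xist was 0.349, 30.3, 0.07 and 60.1 and Eif2s3y was 12.1, 0.256, 24.1 and 0.051. The arrays of a label are therefore not repeats of 1 sample, and the spread behind each p-value includes the difference in sex.

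The lymphocyte genes were highest on the array labelled heterozygous 1, next on knockout 2, then on heterozygous 2 and lowest on knockout 1. The median signal over the 35 genes was 6.73 on heterozygous 1, 4.71 on knockout 2, 2.12 on heterozygous 2 and 0.736 on knockout 1. Their summed signal was 626.1, 157.2, 50.05 and 407.0 in the label order. Above the array median were 33 of the 35 genes on heterozygous 1 and on knockout 2, 24 on heterozygous 2 and 12 on knockout 1. Read against heterozygous 1, the median gene had 33.6% of that signal on heterozygous 2, 11.1% on knockout 1 and 72.7% on knockout 2. On knockout 1, 9 genes had a signal below 0.321, the pseudocount added before logarithms were taken, and on heterozygous 2 this held for 1 gene, so ratios to those values are imprecise.

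**Figure D1:**
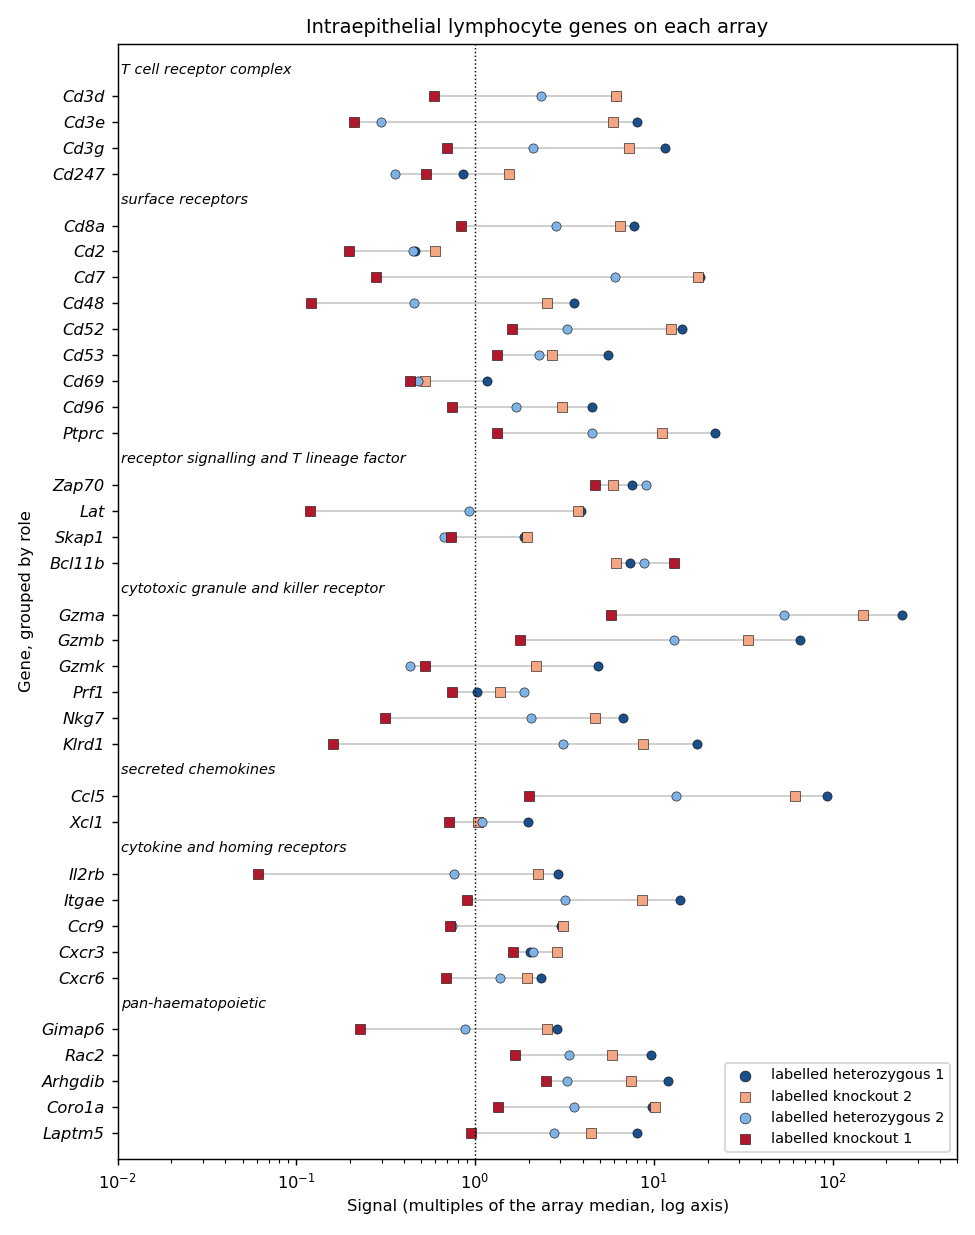
Signal of each of the 35 lymphocyte genes on the 4 arrays (log axis, multiples of the array median), with 1 symbol per array and genes ordered by role. The array labelled knockout 1 gave the lowest signal for 31 genes and heterozygous 1 the highest for 25, and Bcl11b ran the other way.

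The T cell receptor complex was read from 4 genes, whose products form the signalling part of the receptor. Cd3d, Cd3e and Cd3g encode the CD3 chains and lie together on mouse chromosome 9. In RefSeq on GRCm38.p6 the start sites of Cd3g and Cd3d are 1355 bases apart on opposite strands, and those of Cd3e and Cd3d are 27825 bases apart. Whether promoter sequence bears on the array order was not tested. The 200 bases before each start site are shown because the 3 genes are neighbours. They are at chr9:44981586-44981785 on the plus strand, chr9:44980432-44980631 on the minus strand and chr9:45009612-45009811 on the minus strand. Capitals mark matches on either strand to AGGAAG, the core of the sites of ETS factors. Cd3g holds no match, and none of the 3 holds TGTGGT, the core of RUNX sites, or the E-box CAGCTG.
Cd3d: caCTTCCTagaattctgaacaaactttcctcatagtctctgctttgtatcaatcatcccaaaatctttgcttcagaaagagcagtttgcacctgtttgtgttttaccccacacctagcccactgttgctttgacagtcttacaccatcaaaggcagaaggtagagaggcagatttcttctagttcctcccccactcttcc
Cd3g: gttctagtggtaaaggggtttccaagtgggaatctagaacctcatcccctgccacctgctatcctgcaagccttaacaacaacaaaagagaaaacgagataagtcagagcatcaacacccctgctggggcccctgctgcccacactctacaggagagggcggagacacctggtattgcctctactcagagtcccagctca
Cd3e: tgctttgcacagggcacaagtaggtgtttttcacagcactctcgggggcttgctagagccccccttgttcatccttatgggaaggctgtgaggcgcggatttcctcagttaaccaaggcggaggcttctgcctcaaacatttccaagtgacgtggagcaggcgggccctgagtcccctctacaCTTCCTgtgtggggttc

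Cd3d had signals of 6.11, 2.35, 0.587 and 6.14. Cd3g gave 11.5, 2.12, 0.7 and 7.24. Cd3e gave 8.09, 0.296, 0.211 and 5.88. All 3 were high on heterozygous 1 and knockout 2 and low on the other pair, so the labelled groups overlapped at each. The Cd3e signals on heterozygous 2 and knockout 1 were both below the pseudocount of 0.321, so no exact ratio to them is given. Cd3e averaged 4.19 ± 5.51 (SD, n = 2) on the labelled heterozygous pair and 3.05 ± 4.01 (SD, n = 2) on the knockout pair (knockout minus heterozygous -0.33 ± 1.13 SE on the log2 scale, limma adjusted p = 1.0). The means of Cd3g were 6.83 ± 6.65 (SD, n = 2) on the labelled heterozygous pair and 3.97 ± 4.62 (SD, n = 2) on the knockout pair (knockout minus heterozygous -0.95 ± 0.86 SE on the log2 scale, limma adjusted p = 1.0). Cd247, the zeta chain, was dim, at 0.858, 0.355, 0.534 and 1.54, and its 4 probe sets did not share 1 order. The median member of the complex had 7.84% of its heterozygous 1 signal on knockout 1 and 86.5% on knockout 2.

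Among the 9 surface receptors, 8 had the order heterozygous 1, knockout 2, heterozygous 2, knockout 1, from high to low. Cd2 was the exception, with knockout 2 highest. Cd8a, the coreceptor chain that marks most of these cells, had signals of 7.72, 2.83, 0.833 and 6.44. Cd8a averaged 5.28 ± 3.46 (SD, n = 2) on the labelled heterozygous pair and 3.64 ± 3.97 (SD, n = 2) on the knockout pair (knockout minus heterozygous -0.85 ± 0.72 SE on the log2 scale, limma adjusted p = 1.0). Ptprc, which encodes the leukocyte phosphatase CD45, gave 22.0, 4.51, 1.32 and 11.1, and both of its probe sets were higher on heterozygous 1 and knockout 2 than on either other array. Ptprc averaged 13.2 ± 12.3 (SD, n = 2) on the labelled heterozygous pair and 6.23 ± 6.94 (SD, n = 2) on the knockout pair (knockout minus heterozygous -1.26 ± 0.86 SE on the log2 scale, limma adjusted p = 1.0). Cd7, an immunoglobulin-family receptor of T and natural killer cells, gave 18.1, 6.08, 0.279 and 17.7. On heterozygous 1 and knockout 2 the Cd7 signals were almost equal, while the signal on knockout 1 was below the pseudocount. Cd7 averaged 12.1 ± 8.5 (SD, n = 2) on the labelled heterozygous pair and 9.0 ± 12.3 (SD, n = 2) on the knockout pair (knockout minus heterozygous -1.72 ± 1.14 SE on the log2 scale, limma adjusted p = 1.0).

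The remaining surface receptors, except Cd2, repeated this order at other levels. Cd52, a small glycoprotein of lymphocytes anchored in the membrane, had 14.4, 3.26, 1.61 and 12.4. Cd48, which binds Cd2 and Cd244, had 3.58, 0.455, 0.121 and 2.52. Cd96, a receptor for nectin-family ligands, had 4.51, 1.69, 0.746 and 3.05. Each of the 3 was lowest on knockout 1. Cd53, a tetraspanin of leukocytes, had 5.51, 2.27, 1.33 and 2.71. Cd69, a receptor of activated and tissue-resident lymphocytes, had 1.17, 0.482, 0.43 and 0.521, with only heterozygous 1 above the array median. Cd2, an adhesion receptor, was under the array median everywhere, at 0.459, 0.449, 0.198 and 0.6.

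The genes of receptor signalling did not share 1 order. Lat, the membrane adaptor that links the receptor to downstream enzymes, followed the CD3 genes at 3.92, 0.92, 0.119 and 3.76. Skap1, an adaptor that couples the receptor to integrins, had 1.87, 0.668, 0.736 and 1.94. Zap70, the kinase that binds the phosphorylated CD3 chains, had 7.52, 9.06, 4.66 and 5.94 on its brightest probe set. There both labelled knockout arrays were below both heterozygous arrays, whatever their Ap1m2 signal. Zap70 averaged 8.29 ± 1.09 (SD, n = 2) on the labelled heterozygous pair and 5.3 ± 0.906 (SD, n = 2) on the knockout pair (knockout minus heterozygous -0.62 ± 0.48 SE on the log2 scale, limma adjusted p = 1.0). Its other probe sets gave 3.28, 1.08, 0.237 and 2.21, and 2.66, 1.18, 0.529 and 0.598, so the 3 probe sets of this gene disagreed on the place of heterozygous 2.

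Bcl11b, a transcription factor needed for commitment to the T lineage, was the only one of the 35 genes that was lower on both arrays with a high Ap1m2 signal. Its signals were 7.31, 8.86, 12.9 and 6.17, highest on knockout 1, and all 4 of its probe sets were lower on heterozygous 1 and knockout 2 than on the other pair. After quantile normalization or 75th percentile scaling 0 of the 35 genes were lower on both arrays, Bcl11b included, so that order held only for the deposited values. The 200 bases before its start, at chr12:108003415-108003614 on the minus strand, are shown for contrast with the granzyme genes and hold none of the 3 motifs.
Bcl11b: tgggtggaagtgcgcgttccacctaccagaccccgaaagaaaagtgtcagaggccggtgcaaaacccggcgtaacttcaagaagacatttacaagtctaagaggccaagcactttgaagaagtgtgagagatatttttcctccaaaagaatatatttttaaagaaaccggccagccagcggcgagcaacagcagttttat

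The cytotoxic granule genes had, as a median share of their heterozygous 1 signal, less left on knockout 1 (3.7%) than any other role. Gzma, which encodes granzyme A, a serine protease, had signals of 244 on heterozygous 1, 149 on knockout 2, 53.8 on heterozygous 2 and 5.79 on knockout 1. Gzmb, which encodes granzyme B, the protease that cleaves caspases in target cells, had 65.4, 12.9, 1.78 and 33.6. Gzma was 42.2 times and Gzmb 36.7 times as high on heterozygous 1 as on knockout 1. Knockout 2 against heterozygous 2, an order opposite to the labels, gave 2.76-fold for Gzma and 2.61-fold for Gzmb. Gzma averaged 149 ± 135 (SD, n = 2) on the labelled heterozygous pair and 77.2 ± 101 (SD, n = 2) on the knockout pair (knockout minus heterozygous -1.93 ± 1.15 SE on the log2 scale, limma adjusted p = 1.0). For Gzmb the means were 39.1 ± 37.1 (SD, n = 2) on the labelled heterozygous pair and 17.7 ± 22.5 (SD, n = 2) on the knockout pair (knockout minus heterozygous -1.8 ± 1.08 SE on the log2 scale, limma adjusted p = 1.0). Both genes thus varied within each label by about as much as their mean, and neither passed the test.

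The promoters of these 2 genes carry the RUNX core TGTGGT, in capitals on whichever strand it was found, in the 200 bases before each start, once for Gzma and 2 times for Gzmb. They are at chr13:113100982-113101181 on the minus strand and chr14:56262335-56262534 on the minus strand.
Gzma: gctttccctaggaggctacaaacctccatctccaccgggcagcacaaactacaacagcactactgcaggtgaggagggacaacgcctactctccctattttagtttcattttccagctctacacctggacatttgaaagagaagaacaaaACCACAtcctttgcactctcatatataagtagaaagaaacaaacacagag
Gzmb: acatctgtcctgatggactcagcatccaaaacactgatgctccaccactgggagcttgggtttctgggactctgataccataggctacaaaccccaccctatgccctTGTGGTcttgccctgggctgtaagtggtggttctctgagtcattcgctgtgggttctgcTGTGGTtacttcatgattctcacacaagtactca
RefSeq promoters were found for 26 of the 36 genes, Lck included. AGGAAG was present on either strand within 200 bases before the start of 13 of the 26 (50.0%), against 24.5% of all 27025 promoters in the table. TGTGGT was present in 9 (34.6%), against 11.3%, and CAGCTG in 1 (3.85%), against 10.6%. These are matches of letters, with no binding measured here.

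Klrd1, which encodes the CD94 part of a killer cell lectin receptor, had 17.4, 3.09, 0.16 and 8.68. Klrd1 averaged 10.2 ± 10.1 (SD, n = 2) on the labelled heterozygous pair and 4.42 ± 6.02 (SD, n = 2) on the knockout pair (knockout minus heterozygous -1.9 ± 1.07 SE on the log2 scale, limma adjusted p = 1.0), and its unadjusted p of 0.0997 was the lowest of the 32 genes tested. Nkg7, a membrane protein of cytotoxic granules, had 6.73, 2.06, 0.315 and 4.71. Gzmk, another granzyme protease, had 4.89, 0.431, 0.523 and 2.2. Klrd1 and Nkg7 were lowest on knockout 1, whereas Gzmk was slightly lower on heterozygous 2. Prf1, the pore-forming protein perforin, was near the array median on all arrays, at 1.02, 1.88, 0.745 and 1.37, and its probe sets differed in order. The median gene of this role had 20.8% of its heterozygous 1 signal on heterozygous 2 and 56.1% on knockout 2.

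Both secreted chemokines were highest on heterozygous 1. Ccl5, a chemokine that cytotoxic lymphocytes store, had 93.2, 13.3, 2.01 and 61.8. Its log2 difference between heterozygous 1 and knockout 1, with the pseudocount, was 5.33. Ccl5 averaged 53.3 ± 56.5 (SD, n = 2) on the labelled heterozygous pair and 31.9 ± 42.3 (SD, n = 2) on the knockout pair (knockout minus heterozygous -1.57 ± 1.23 SE on the log2 scale, limma adjusted p = 1.0). Xcl1, which draws in cross-presenting dendritic cells, had 1.98, 1.09, 0.713 and 1.04. Together with Zap70 it was 1 of the 2 genes lower on both labelled knockout arrays, but its signal on knockout 2 lay just under that on heterozygous 2, and after 75th percentile scaling Zap70 alone kept that order. Xcl1 averaged 1.53 ± 0.629 (SD, n = 2) on the labelled heterozygous pair and 0.878 ± 0.233 (SD, n = 2) on the knockout pair (knockout minus heterozygous -0.6 ± 0.47 SE on the log2 scale, limma adjusted p = 1.0).

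Cytokine and homing receptors connect these cells with the epithelium. Itgae, the alphaE integrin chain that binds E-cadherin, had 14.1, 3.19, 0.904 and 8.54, and both of its probe sets were lowest on knockout 1. Itgae averaged 8.63 ± 7.69 (SD, n = 2) on the labelled heterozygous pair and 4.72 ± 5.4 (SD, n = 2) on the knockout pair (knockout minus heterozygous -1.11 ± 0.83 SE on the log2 scale, limma adjusted p = 1.0). Il2rb, the beta chain shared by the receptors of IL-2 and IL-15, had 2.91, 0.764, 0.061 and 2.24, where the value on knockout 1 was below the pseudocount. Ccr9, the receptor of Ccl25, had 3.04, 0.745, 0.725 and 3.12. On this probe set the Ccr9 signals split the arrays cleanly by Ap1m2 level and left the labelled means 1.89 and 1.92 side by side. Of the 5 Ccr9 probe sets, 3 had that split and 1, the set given here, passed the filter. Cxcr6, the receptor of Cxcl16, had 2.34, 1.38, 0.688 and 1.96. Cxcr3, the receptor of Cxcl9, Cxcl10 and Cxcl11, varied little, at 2.03, 2.1, 1.62 and 2.86.

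Pan-haematopoietic genes, which mark white blood cells of many kinds, were all lowest on knockout 1. Coro1a, an actin-binding protein of leukocytes, had 9.72, 3.58, 1.35 and 10.2. Arhgdib, an inhibitor of small GTPases in leukocytes, had 12.0, 3.28, 2.48 and 7.45. Rac2, a small GTPase of blood cells, had 9.61, 3.35, 1.67 and 5.86. Relative to heterozygous 1, these 3 kept more signal on knockout 1 than Lat or Klrd1, whose signals there were below the pseudocount. Heterozygous 1 was 4.82 to 7.2 times as high as knockout 1 for these 3, against 6.05 times for Cd96 and 9.27 times for Cd8a. Laptm5, a lysosomal membrane protein of haematopoietic cells, had 8.08, 2.76, 0.944 and 4.44, or 8.56 times as much on heterozygous 1 as on knockout 1. Gimap6, a GTPase of lymphocytes, had 2.86, 0.883, 0.227 and 2.52, below the pseudocount on knockout 1. The median gene of this role had 13.9% of its heterozygous 1 signal on knockout 1 and 62.2% on knockout 2. On knockout 1 the medians of the other roles ran from 3.7% for the cytotoxic granule to 50.6% for receptor signalling.

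By label, no gene of the list passed the test. In limma's comparison of 2 heterozygous with 2 knockout arrays, 0 of 22519 probe sets passed an adjusted p of 0.05 (0.0%), and 170 had an unadjusted p under 0.05 (0.755%), 0 of them representing a lymphocyte gene. The lowest adjusted p among the 32 tested was 0.999868. The knockout mean was the lower for 30 of the 35 genes, with a median log2 difference, knockout minus heterozygous, of -0.65, beside 0.0013 over all genes, of which 49.8% were lower. Only 2 of the 35 had both knockout arrays below both heterozygous arrays, against 12.9% of all genes and 10.9% of those that passed the filter. None had both above, against 9.7%.

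The median difference rested on single arrays. Without knockout 1 it was 0.35, and 25 genes turned sign. Without heterozygous 1 it was -0.092, without heterozygous 2 it was -1.5 and without knockout 2 it was -1.9. Without knockout 2, 240 probe sets passed the adjusted threshold (1.07%), 15 of them for lymphocyte genes and all 15 lower on the remaining knockout array. These were Cd3d, Cd3e, Cd3g, Cd8a, Cd7, Ptprc, Lat, Gzma, Gzmb, Nkg7, Klrd1, Ccl5, Il2rb, Itgae and Laptm5. In that fit the lone knockout array was assumed to vary like the heterozygous pair, and after quantile normalization the same comparison called 0 probe sets (2624 at an unadjusted p under 0.05). Without knockout 1, 24 probe sets passed (0.107%), 0 of them for lymphocyte genes.

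**Figure D2:**
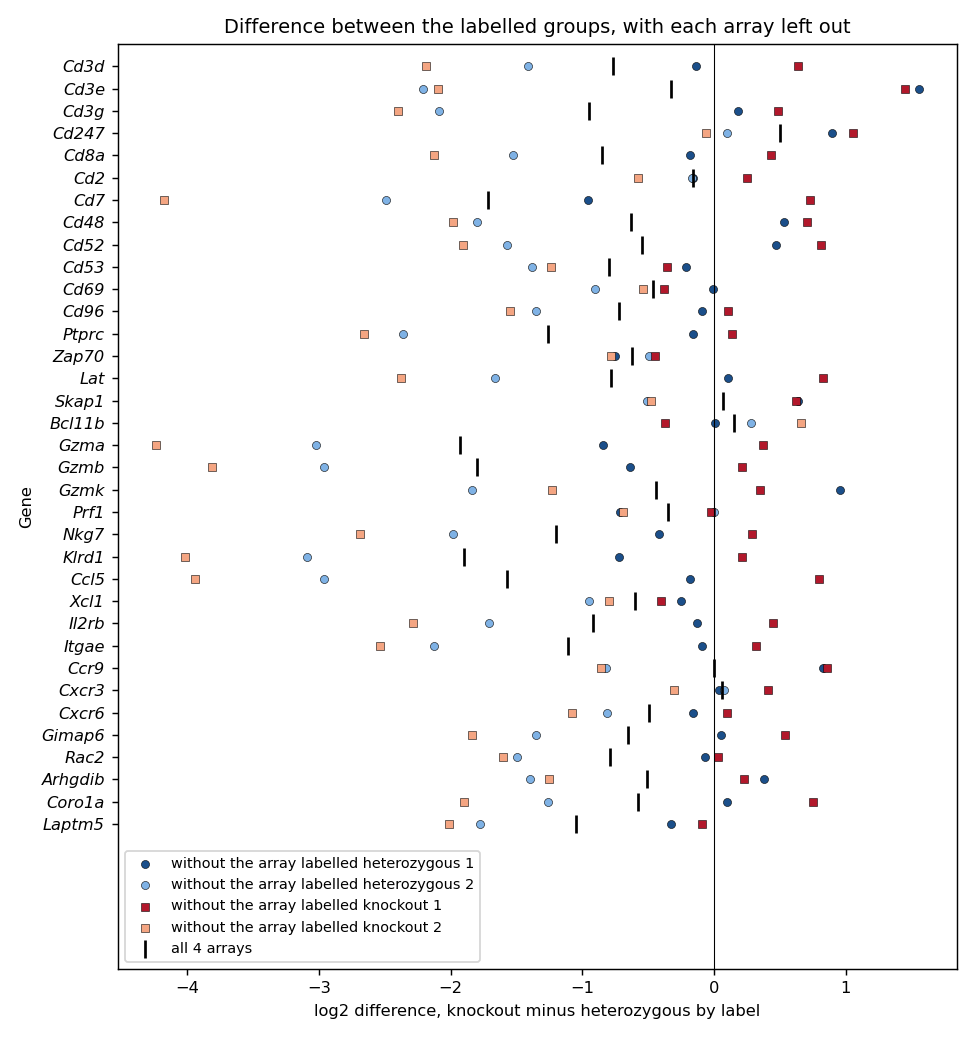
Log2 difference between the labelled groups, knockout minus heterozygous, for each of the 35 lymphocyte genes with all 4 arrays (black bars) and with each array left out in turn (symbols). The median over the genes is -0.65 with all arrays, 0.35 without knockout 1 and -1.9 without knockout 2.

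By Ap1m2 signal, the arrays separated at most of the genes. Both arrays with the higher Ap1m2 signal, heterozygous 1 and knockout 2, exceeded both others at 30 of the 35 genes on the deposited scale, 30 after quantile normalization and 32 after 75th percentile scaling. The share of all genes with that order was 12.4%, 21.6% and 26.7% under the same scalings, and 9.06% of genes that passed the filter had it on the deposited scale. The exceptions on the deposited scale were Zap70, Bcl11b, Prf1, Xcl1 and Cxcr3. In the opposite direction stood 1 of the 35 genes, Bcl11b, against 41.4% of all genes. On the deposited scale the genes that passed the filter had a median log2 shift of 0.45 on heterozygous 2 and 0.4 on knockout 1 relative to heterozygous 1, which quantile normalization reduced to 0.03 on each.

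The exact order heterozygous 1, knockout 2, heterozygous 2, knockout 1 was shared by 23 of the 35 genes, against 4.45% of all genes and 4.11% of those that passed the filter. Lowest on knockout 1 were 31 genes (22.9% of all genes), and highest on heterozygous 1 were 25 (16.9%). The signal on heterozygous 1 was at least 2-fold that on knockout 1 for 30 of the 35 genes (15.0% of all genes). Knockout 2 was at least 2-fold above heterozygous 2 for 23 genes, against 11.1%. Between heterozygous 1 and knockout 2 the median log2 difference was 0.44, and the differences ran from -0.66 (Cd247) to 1.05 (Gzmk) on the scale with the pseudocount. The ratio of the signals themselves was 2.22 for Gzmk, 2.24 for Cd69, 2.03 for Cd53 and 2.0 for Klrd1. Of 67 probe sets named for these genes 46 passed the filter, and 34 of the 46 were higher on both arrays with the higher Ap1m2 signal. All probe sets of Ptprc, Itgae, Cxcr6, Gimap6 and Coro1a had that order, while those of Cd8a, Zap70, Skap1, Il2rb, Ccr9, Rac2, Laptm5, Cd53 and Cd247 were divided.

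**Figure D3:**
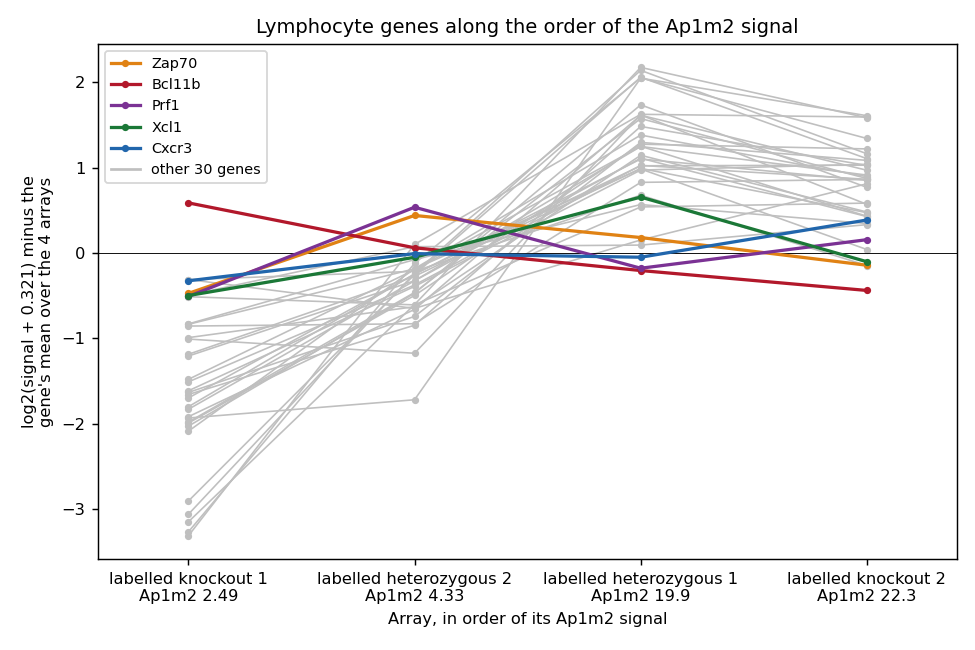
Log2 signal of each of the 35 lymphocyte genes minus that gene's mean over the 4 arrays, with the arrays from the lowest to the highest Ap1m2 signal and a line per gene. The 30 grey genes are higher on both arrays to the right than on both to the left, the 5 coloured ones are not, and Bcl11b is lower to the right on this scale.

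Other T cell genes, not in the list of 36, were read in the same way. Of 47 such genes 44 were measured and 28 passed the filter. Of the 44, 33 were higher on both arrays with the higher Ap1m2 signal, against 12.4% of all genes. Lowest on knockout 1 were 27 of the 44, against 22.9% of all genes. Gimap4, a GTPase of lymphocytes, had 18.6, 3.19, 0.934 and 10.6. Ptpn22, a phosphatase that restrains receptor signalling, had 4.97, 1.33, 0.162 and 4.13. Ctsw, a protease of cytotoxic cells, had 6.74, 1.73, 0.153 and 4.36. Fyn, a kinase close to Lck, had 7.92, 2.1, 0.782 and 5.59. These 4 had the exact order of most lymphocyte genes, which 18 of the 44 had, against 4.45% of all genes. Cytip, an adaptor of leukocyte adhesion, had 10.8, 9.48, 1.97 and 6.09, and Itgb7, the partner chain of alphaE, had 0.661, 0.219, 1.27 and 1.96. Both departed from that order, and Itgb7 was lowest on heterozygous 2.

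Markers of helper T cells were dim. Cd4, the helper T cell coreceptor, had 0.239, 0.286, 0.153 and 0.256, none of the 9 measured helper and regulatory T cell genes passed the filter, and 7 of them were under the array median on every array. Natural killer and innate lymphoid genes were divided, and 4 of the 8 measured passed the filter. Ncr1, Klra8 and Klra7, receptors of natural killer cells, were under the median on every array. Tyrobp, a signalling adaptor shared with myeloid cells, had 16.5, 4.31, 1.62 and 10.6. Fcer1g, an adaptor of Fc receptors that myeloid and mast cells also express, had 8.33, 2.66, 0.107 and 4.92. Both adaptors had the order of most lymphocyte genes, and the part of natural killer cells in the lymphocyte values was not tested. Of the T cell receptor chains only Tcra was measured, at 0.018, 0.036, 0.326 and 0.177, so alpha-beta and gamma-delta cells were not told apart here. Igha and Jchain, which mark plasma cells, had 413, 204, 237 and 199 and 205, 34.9, 34.1 and 39.6. The summed signal of the 11 measured B and plasma cell genes was 632.9, 252.6, 285.8 and 254.5, highest on heterozygous 1 alone. Of the 11, 3 were higher on both arrays with the higher Ap1m2 signal, against 12.4% of all genes.

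Macrophage and myeloid genes shared the order of the lymphocyte genes in part. Their summed signal was 114.5, 42.08, 42.61 and 56.37 over 15 genes. Of the 15, 9 were higher on both arrays with the higher Ap1m2 signal, against 12.4% of all genes. The exact order of most lymphocyte genes was found at 8 of the 15, against 4.45% of all genes. The list had a median log2 difference from heterozygous 1 of -1.19 on heterozygous 2, -1.54 on knockout 1 and -0.6 on knockout 2. C1qa, a complement gene of macrophages chosen after its values were seen, had 8.07, 1.97, 0.537 and 5.12, and C1qb, C1qc, Mpeg1 and Adgre1, chosen likewise, had the same order of arrays. Csf1r, the growth factor receptor of macrophages, had 22.7, 3.26, 3.89 and 8.19. Lyz2, lysozyme of phagocytes, had 42.0, 18.1, 20.8 and 15.6. Neither of these 2 had that order. Cd14 ran the other way, at 2.08, 5.9, 6.86 and 3.1. It was the 1 gene of the 15 lower on both arrays with the higher Ap1m2 signal, against 41.4% of all genes. S100a8 and S100a9, defining genes of neutrophils, were under the array median on every array. The part of myeloid cells in the signals of Ptprc, Laptm5, Coro1a and other genes that they also express was not tested. Of 6 mast cell genes 1, and of 12 genes of stroma, muscle and endothelium 2, were higher on both arrays with the higher Ap1m2 signal, against 12.4% of all genes.

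Epithelial genes differed among the same arrays. On the deposited scale, 11 of 12 pan-epithelial genes were lower on both arrays with the higher Ap1m2 signal, against 41.4% of all genes. The share of all genes was 24.0% after quantile normalization and 21.8% after 75th percentile scaling, where the pan-epithelial genes were not counted. Their summed signal was 2357, 3275, 3714 and 2213. Their median log2 difference from heterozygous 1 was 0.69 on heterozygous 2 and 0.72 on knockout 1, and 0.25 and 0.28 after quantile normalization. Krt8, a keratin of simple epithelia, had 455, 510, 601 and 382. Villus enterocyte genes had a median log2 difference from heterozygous 1 of -0.16 on heterozygous 2, -1.45 on knockout 1 and -0.32 on knockout 2. Lct, the lactase of mature enterocytes, had 312, 82.3, 3.97 and 237 and was chosen after its values were seen. Fabp2, a fatty acid carrier of enterocytes, had 596, 538, 578 and 461. Alpi had 588, 539, 590 and 485, and Apoa4 had 543, 512, 525 and 416. None of these 3, the brightest of the villus list, was lowest on knockout 1. Crypt proliferation genes were highest on knockout 1 for 8 of 11, with a median log2 difference there of 1.41 on the deposited scale, 0.93 after quantile normalization and 0.98 after 75th percentile scaling. Knockout 1 thus had the lowest lymphocyte signal and the lowest signal of 7 of the 10 measured villus genes, against 22.9% of all genes. It had the highest signal of 8 of the 11 crypt genes on the deposited scale. The share of all genes that were highest there was not computed. The other crypt genes were Olfm4 (122, 88.6, 106 and 117), Lgr5 (3.65, 1.78, 1.64 and 4.05) and Ascl2 (2.23, 0.33, 2.2 and 2.53). All 3 were higher on both arrays with the higher Ap1m2 signal, and Lgr5 was lowest on knockout 1. The part of these differences in the lymphocyte values was not tested.

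**Figure D4:**
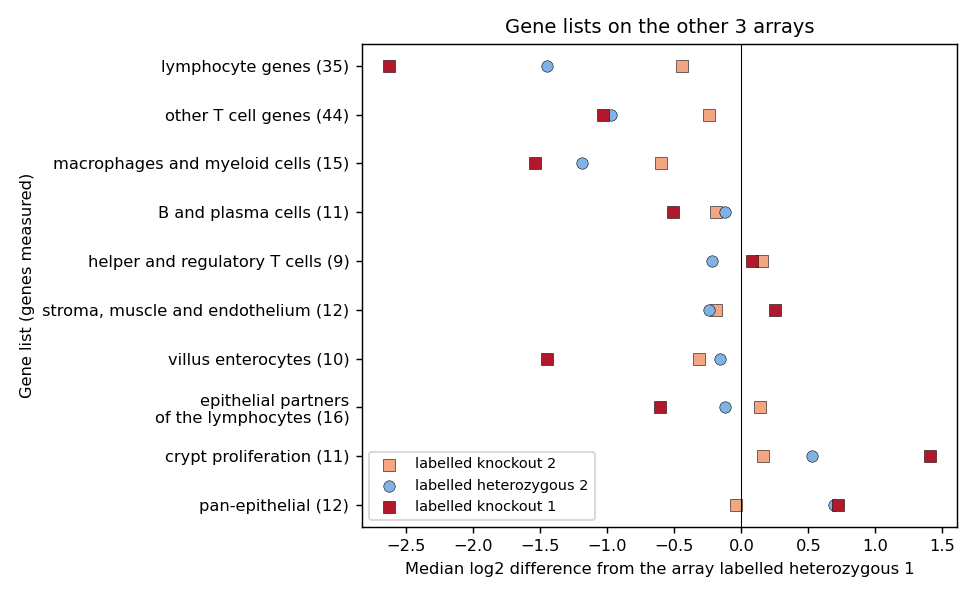
Median log2 difference from the array labelled heterozygous 1 for the lymphocyte genes and 9 other gene lists on the other 3 arrays (deposited scale). Lymphocyte genes are at -2.63, villus enterocyte genes at -1.45 and crypt proliferation genes at 1.41 on knockout 1. The stroma list on knockout 1 (0.25), the crypt list on heterozygous 2 (0.53), the pan-epithelial list on knockout 2 (-0.04) and the helper T cell list on knockout 1 (0.08) change sign under quantile normalization, 75th percentile scaling or both.

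Epithelial partners of these lymphocytes were measured for 16 of 20 genes. Of the 16, 7 were higher on both arrays with the higher Ap1m2 signal, against 12.4% of all genes. Ccl25, the ligand of Ccr9, had 175, 162, 135 and 206, a narrower range than its receptor. Il15 had 13.3, 6.87, 4.15 and 12.1 and Il15ra, which presents it, had 4.25, 3.82, 1.81 and 3.48. Both were lowest on knockout 1, as Il2rb was on its brightest probe set, where that signal was below the pseudocount. The other Il2rb probe set, at 2.17, 1.28, 1.11 and 0.9, was lowest on knockout 2. Cdh1, which encodes E-cadherin, had 157, 266, 219 and 145. On the deposited scale it was lower on both arrays with the higher Ap1m2 signal, where its ligand Itgae was higher. These values were not corrected for the median log2 shift of 0.45 on heterozygous 2 and 0.4 on knockout 1 relative to heterozygous 1. Between heterozygous 2 and knockout 1, Cdh1 and Itgae were both higher on heterozygous 2. Cxcl16, the ligand of Cxcr6, had 7.95, 32.3, 21.8 and 6.98, with the highest signals on heterozygous 2 and knockout 1. Cxcl9, a ligand of Cxcr3, had 4.12, 0.113, 0.897 and 1.83. Btnl2, of the butyrophilin-like family whose members shape gut gamma-delta T cells, had 31.8, 28.3, 10.3 and 37.9, and H2-T3, the ligand of CD8 alpha homodimers, had 12.5, 12.8, 5.48 and 14.3. Both of these were lowest on knockout 1 and had signals on heterozygous 2 near those on heterozygous 1.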

How the data were processed

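The deposited table gave linear intensity values, 1 for each probe set on each of 4 arrays. They were made with MAS5, per the submitters' processing notes (version not given in the sources used here). Medians near 1 on all arrays show a rescaling that the labels do not state. Detection calls were not used. Precision is limited by the number of arrays.

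Gene names came from the platform annotation (34945 for 1 gene, 932 for several, 9160 for none, of 45037). Identifiers of 34741 matched a RefSeq table of GRCm38.p6, with 0 symbols changed. Any 2 arrays shared identical values at 0.144% of probe sets or fewer. The deposited values were transformed as log2(value + 0.321), the pseudocount being their 25th percentile, which understates fold differences of dim genes. Probe sets with a mean of at least 0.983 (22519) were fitted with lmFit and eBayes (with trend) of limma 3.58.1, R 4.3.3, and p-values were adjusted by Benjamini-Hochberg (threshold 0.05). The code was tested on simulated data. Counts over genes use 1 probe set per gene, 18193 in all and 11326 past the filter. Tables and figures were made with Python 3.11.15, pandas 2.3.3 and matplotlib 3.10.9.

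All listed genes with a probe set are named. Of other lists the 3 brightest genes could be named, any gene past the filter among other T cell genes and epithelial partners, and markers under the array median on every array. C1qa, C1qb, C1qc, Mpeg1, Adgre1, Lct, Lgr5 and Ascl2 were named outside this rule, after their values were seen. The members and lists were chosen with earlier results of these data known. Alternatives were other pseudocounts, filters and scalings, no trend, a replicate block, averaging over a gene's probe sets and leaving out each array. Crossed pairs and quantile normalization with an array left out were added after seeing the data. Same-numbered samples deviated in opposite directions (correlation of deviations from the group means -0.511), so the numbers were not taken to pair the samples.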

Additional observations from a re-analysis of the deposited data

How the results depend on the processing

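With all arrays, the count of probe sets past the adjusted threshold stayed at 0 under both other pseudocounts, no filter, both scalings and a fit without the trend, and was 1 (lower, no lymphocyte gene) among probe sets with a mean of at least 5.02. With the replicate number as a replicate block it was 0 (145 at an unadjusted p under 0.05), and with crossed pairs, a pairing chosen after seeing the data, it was also 0 (1246). Leaving out each array gave 0 to 240 called probe sets, a median difference over the 35 genes of -1.9 to 0.35, and 3 to 31 genes lower on every remaining knockout array. The number of the 35 lower on both knockout arrays was 2 after quantile normalization (13.0% of all genes) and 1 after 75th percentile scaling (13.4%). It was 3 with the mean of all probe sets, for which the share of all genes was not computed. Single differences turned sign for 0 genes with either pseudocount, for 1 (Ccr9) under each scaling and for 2 (Cd53, Skap1) with the mean of probe sets. They turned for 9 genes without heterozygous 1, 3 without heterozygous 2, 25 without knockout 1 and 4 without knockout 2. The causes were not tested. Genes near the array median, such as Cd247, Cd2, Cd69 and Prf1, are limited by low signal.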
